A study of Homo sapiens with 9 samples.

Results

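SR proteins, hnRNPs and related regulators of alternative splicing were followed in RNA-seq libraries of MCF10A cells in which CHAF1B had been knocked down. The members were the genes of the deposited count table that GENCODE release 29 types as protein coding and whose symbol is that of an SRSF, HNRNP, TRA2, PTBP or MBNL gene, RBFOX2 or CELF1. They numbered 46 of the 26186 genes in the table: 12 SR proteins (SRSF1 to SRSF12), 2 SR-like TRA2 proteins, 24 hnRNPs and 8 others (PTBP1, PTBP2, PTBP3, MBNL1, MBNL2, MBNL3, RBFOX2 and CELF1). The choice used names and gene types, not measured values, but was made with earlier results of these data known. A further 2 genes of the annotation fit the names, HNRNPCL3 and HNRNPCL4, and were not analysed here.

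SR proteins bind exonic enhancer sequences through RNA recognition motifs and recruit the spliceosome through domains rich in arginine and serine. The hnRNPs coat nascent transcripts, and many of them, such as hnRNP A1 and PTBP1, repress exons by binding nearby silencer sequences. The balance between these families is known to shape exon choice, and many of these genes limit their own level through poison exons that send the message to nonsense-mediated decay. PTBP, MBNL, RBFOX and CELF proteins bind sequence motifs around particular exons and are known from switches of splicing in development.

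MCF10A is a non-tumorigenic line of human mammary epithelial cells. The tested groups carried shCHAF1B-#1 (3 libraries) or shCHAF1B-#2 (3 libraries), a pair of short hairpin RNAs against CHAF1B, and the control group carried shGFP (3 libraries), a hairpin against a gene foreign to these cells. CHAF1B encodes a subunit of CAF-1, the complex that deposits histones H3 and H4 on newly copied DNA, and the series asked what changes when CAF-1 is suppressed. In all groups the hairpin was delivered by lentivirus in the pLKO.1 vector, cells were put under 2 µg/mL puromycin 24 hours after transduction, and RNA was taken at 3 days. All groups grew in medium with horse serum, insulin, cholera toxin, EGF and hydrocortisone. The labels do not say whether libraries of a group came from separate cultures, so p-values measure the spread between these libraries, which may be technical.

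The libraries held 24339914 to 31819468 counts. CHAF1B had 63, 121 and 87 counts in the shCHAF1B-#1 libraries and 64, 99 and 73 in the shCHAF1B-#2 libraries, against 914, 1145 and 1050 in the shGFP libraries, which left 8.82% and 8.54% of its shGFP level. All 10 mammary epithelial markers (KRT5, KRT14, KRT17, KRT6A, TP63, CDH1, EPCAM, LAMB3, ITGB4 and SFN) were detected in every group, with a summed level of 12170 to 13510 CPM (counts scaled to library size, with TMM factors) with shCHAF1B-#1, 12000 to 12600 CPM with shCHAF1B-#2 and 12750 to 13880 CPM with shGFP. Single markers differed within these sums. KRT5 had 3876 to 4278 CPM and 3924 to 4103 CPM in the knockdowns, against 7066 to 7636 CPM with shGFP, and KRT17 was also lower in every knockdown library. LAMB3 had 2635 to 2936 CPM and 2537 to 2647 CPM, against 959.7 to 1048 CPM with shGFP, and ITGB4 was also higher in every knockdown library. The part of these shifts in the results was not tested. Fibroblast markers summed to 15.29 to 17.09 CPM, 14.25 to 17.23 CPM and 17.34 to 17.65 CPM in the same groups. They had 4, 5 and 5 of 7 genes detected, and LUM was at 0 in the shCHAF1B-#1 libraries. DCN had 1.38 to 1.827 CPM and 1.808 to 2.162 CPM in the knockdowns, against 9.171 to 9.718 CPM with shGFP, and COL1A1 had 13.42 to 15.03 CPM and 12.27 to 15.15 CPM, against 7.508 to 7.784 CPM. Replicate 3 of shCHAF1B-#1 stood apart in B lymphocyte markers. Their summed level there was 264.8 CPM, against 5.407 and 5.738 CPM in the other shCHAF1B-#1 libraries, 4.96 to 5.769 CPM with shCHAF1B-#2 and 2.759 to 4.701 CPM with shGFP. Of the 17 B lymphocyte markers, 16, 15 and 15 were detected in the shCHAF1B-#1, shCHAF1B-#2 and shGFP groups. BANK1 was at 0 in the shCHAF1B-#2 libraries and TCL1A in the shGFP libraries. Without this library, no tested member's log2 fold change with shCHAF1B-#1 moved by more than 0.0689, and 3 calls ended (SRSF12, HNRNPAB and HNRNPK).

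Of the 46 members, 44 had enough counts to be tested among 16235 genes. HNRNPCL1 and HNRNPCL2, relatives of HNRNPC that lack introns, were under the filter. HNRNPCL1 had 9, 8 and 7 counts with shCHAF1B-#1, 4, 7 and 11 with shCHAF1B-#2, and 6, 6 and 5 with shGFP. HNRNPCL2 had at most 3 counts in any library. The tested members were a well expressed set: their median level in shGFP was 193 CPM, against 31.0 CPM over 12699 tested protein-coding genes.

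Most of the family fell in both knockdowns, by modest amounts. With shCHAF1B-#1, 31 of 44 members fell and 3 rose (edgeR quasi-likelihood test, Benjamini-Hochberg adjusted p under 0.05 over all genes tested, as for all adjusted p-values here), where 25.2% of all genes tested fell and 27.9% rose. With shCHAF1B-#2, 29 fell and 1 rose, where 24.6% of all genes fell and 26.7% rose. The members' median log2 fold change was -0.23 and -0.20 for the hairpins, beside -0.00253 and -0.0138 over all genes. None of the members passed a 2-fold change in either comparison, where 8.45% and 7.85% of all genes did. With shCHAF1B-#1 5 members and with shCHAF1B-#2 6 members fell by more than 1.5-fold, as did 7.64% and 7.56% of all genes. Counted together, the 46 genes took 0.961% to 0.990% of all counts in the shCHAF1B-#1 libraries and 0.998% to 1.01% in the shCHAF1B-#2 libraries, against 1.19% to 1.25% in the shGFP libraries. These shares are without TMM factors, which were lower in every knockdown library than in the shGFP libraries. With the factors the gap was smaller: the sums were 9951 to 10098 CPM and 10155 to 10234 CPM, against 11573 to 12035 CPM with shGFP. In bulk RNA, fewer cells of a type and less RNA per cell cannot be told apart.

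The same direction was called by both hairpins for 28 members that fell and 1 that rose, shares of 63.6% and 2.27%, where 20.8% of all genes tested fell and 23.8% rose under both. Both comparisons share the shGFP libraries. By role, 17 of 22 hnRNPs, 5 of 12 SR proteins, 1 of 2 TRA2 genes and 5 of the 8 others fell under both hairpins, and 9 members were called in neither. In 24 of 44 members every knockdown library lay below every shGFP library, an arrangement that 22.7% of all genes tested showed, and in 1 member, PTBP3, every knockdown library lay above, as in 25.8% of all genes. Without shCHAF1B-#1 replicate 3, the library with B lymphocyte transcripts, 28 members fell and 3 rose with shCHAF1B-#1, and 25 fell and 1 rose under both hairpins. The members' median with shCHAF1B-#1 was then -0.24, and 22.6% of all genes fell. Among 4778 genes with a mean of at least 50 CPM, 30% fell with shCHAF1B-#1 and 27.7% with shCHAF1B-#2, with medians of 0.04 and 0.05, and the 37 members at that level had medians of -0.21 and -0.18.

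**Figure D1:**
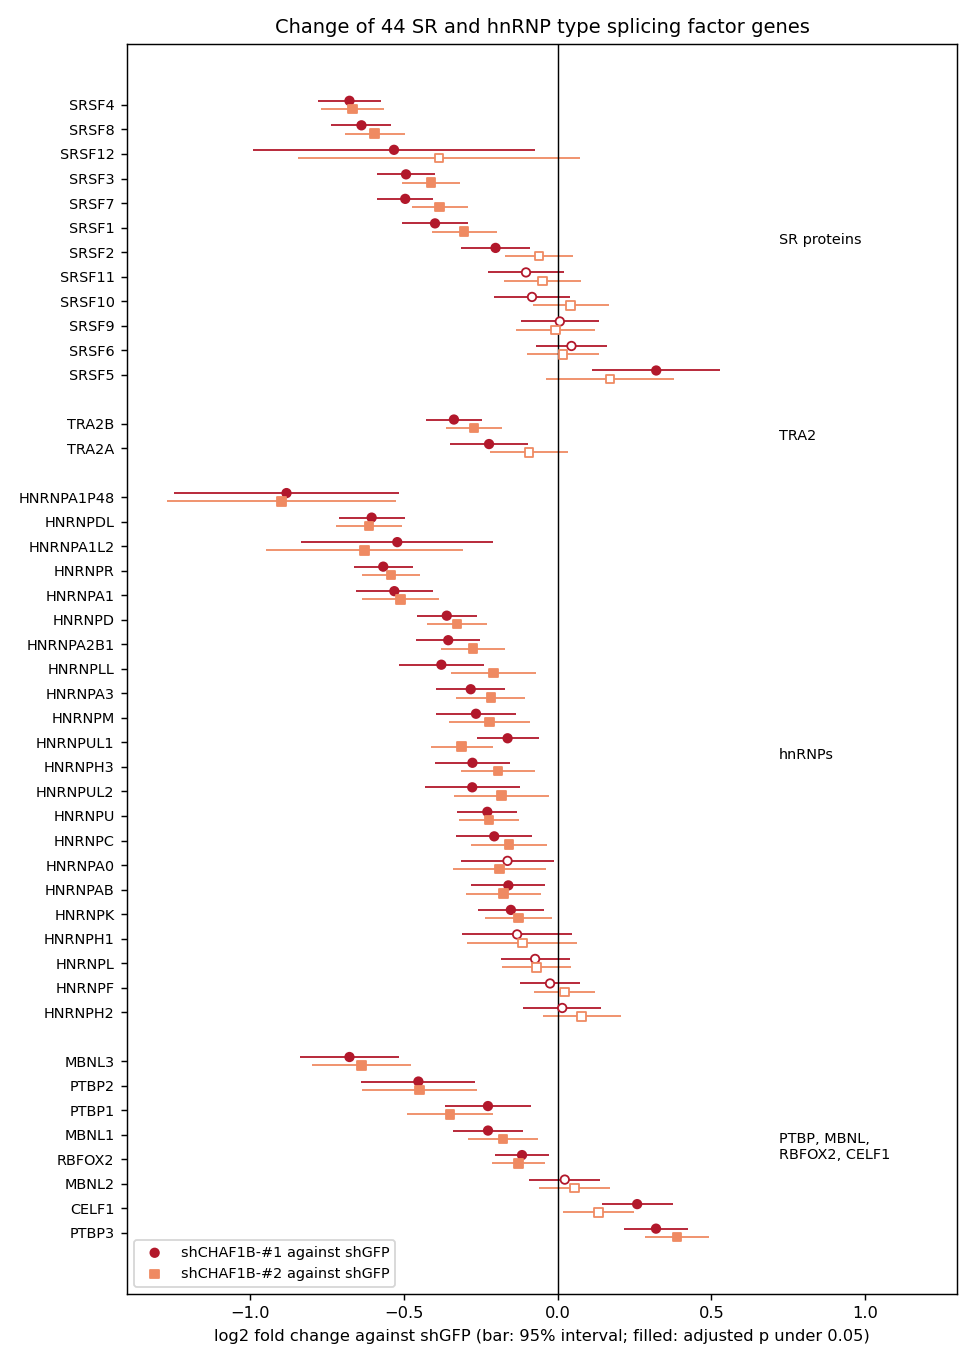
Log2 fold change against shGFP (horizontal axis) of each of the 44 tested genes (rows, grouped by role), with circles for shCHAF1B-#1, squares for shCHAF1B-#2 and bars for the 95% interval; filled symbols passed an adjusted p of 0.05. Most symbols lie left of 0, and PTBP3 is filled on the right for both hairpins.

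**Figure D2:**
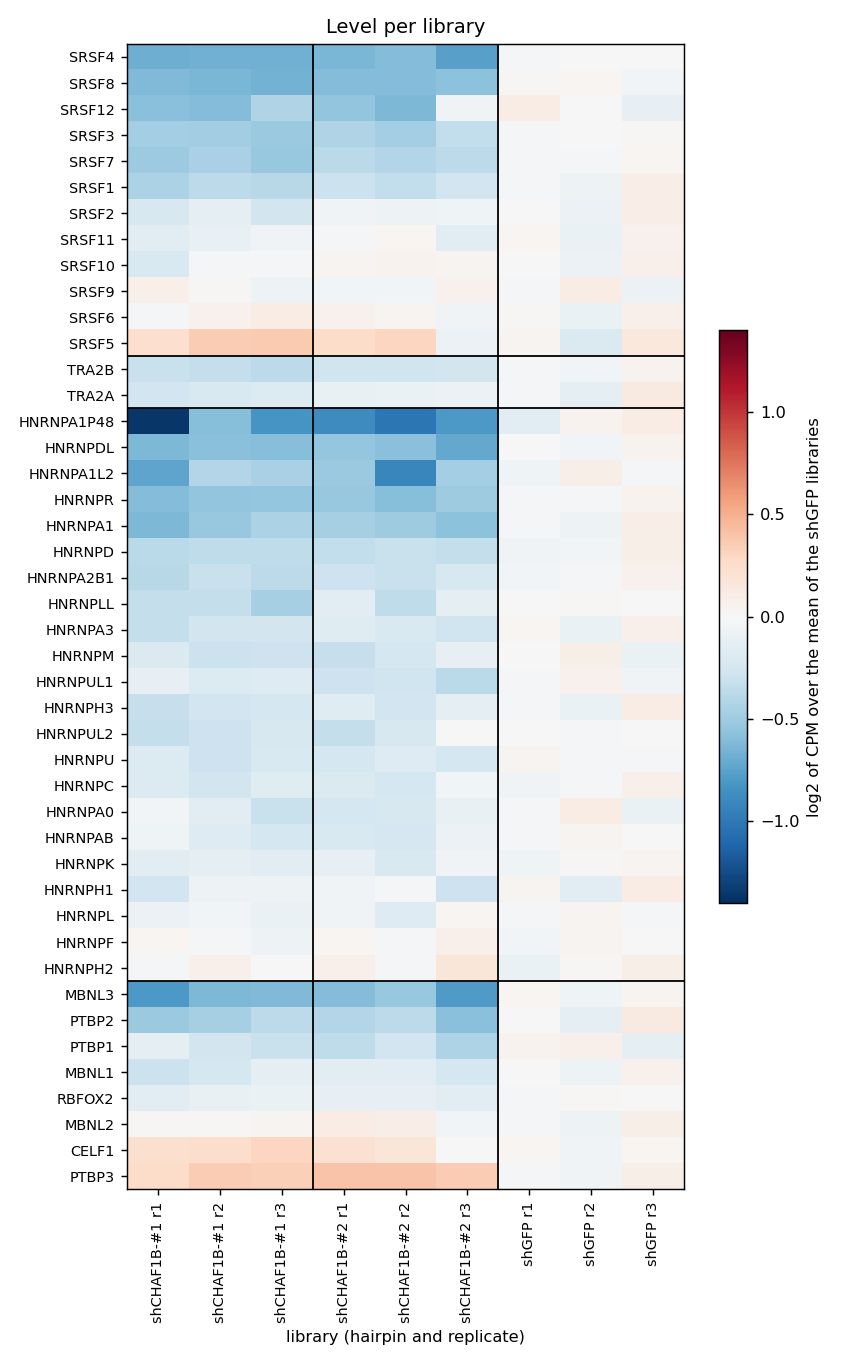
Log2 of CPM over the mean of the shGFP libraries (colour, blue lower and red higher) for the 44 tested genes (rows) in each of the 9 libraries (columns, r1 to r3 are replicates). SRSF4, SRSF8, HNRNPDL, HNRNPR and MBNL3 are blue in all 6 knockdown libraries, and PTBP3 is red in all 6.

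Among the SR proteins the falls with the largest smaller change were in SRSF4, SRSF8, SRSF3 and SRSF7. SRSF4 (ENSG00000116350.16, GRCh38 chr1:29147743-29181987, minus strand), one of the longer SR proteins, had 74.2, 74.8 and 75.3 CPM with shCHAF1B-#1 and 76.9, 78.3 and 70.5 CPM with shCHAF1B-#2, against 118, 120 and 120 CPM with shGFP. The 6 knockdown libraries lay far below the controls. The log2 fold change was -0.68 (SE 0.0468, adjusted p = 5.0e-08) and -0.67 (SE 0.0470, adjusted p = 6.6e-08) for the hairpins, or 37.5% and 37.0% less. SRSF8 (ENSG00000263465.4, chr11:95067197-95071224, plus strand), which arose as a retrocopy of SRSF2, had 43.1, 42.6 and 41.8 CPM and 43.5, 43.4 and 44.4 CPM in the knockdowns, against 66.9, 67.3 and 64.3 CPM with shGFP. No library of the 2 knockdowns reached the shGFP range. On the log2 scale SRSF8 fell by 0.64 (SE 0.0453) with shCHAF1B-#1 and by 0.60 (SE 0.0454) with shCHAF1B-#2. SRSF2 itself, the SR protein also called SC35, fell less: its log2 fold change was -0.20 (SE 0.0518, adjusted p = 0.0048) with shCHAF1B-#1 and did not pass with shCHAF1B-#2 (-0.06, 95% interval -0.17 to 0.05).

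SRSF3 and SRSF7 are short, closely related SR proteins that also act as adaptors for mRNA export. SRSF3 (ENSG00000112081.16, chr6:36594353-36605600, plus strand) had 268, 266 and 261 CPM with shCHAF1B-#1 and 279, 269 and 293 CPM with shCHAF1B-#2, against 366, 375 and 378 CPM with shGFP. SRSF7 (ENSG00000115875.18, chr2:38743599-38751494, minus strand) had 133, 138 and 130 CPM and 145, 142 and 147 CPM in the knockdowns, against 187, 186 and 193 CPM with shGFP. In both genes the groups did not overlap. SRSF3 fell by 0.49 (SE 0.0441) and 0.41 (SE 0.0441), and SRSF7 by 0.50 (SE 0.0421) and 0.38 (SE 0.0421). SRSF1, the first SR protein described and a splicing factor with oncogenic activity, was the fifth called by both hairpins, at -0.40 (SE 0.0491) and -0.30 (SE 0.0491).

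The other 7 SR proteins were not called by both hairpins. SRSF5 rose with shCHAF1B-#1, at 240, 263 and 264 CPM, and had 244, 252 and 194 CPM with shCHAF1B-#2, against 210, 178 and 226 CPM with shGFP. Its log2 fold change was 0.32 (SE 0.0966, adjusted p = 0.013) with shCHAF1B-#1 and 0.17 (SE 0.0968, adjusted p = 0.16) with shCHAF1B-#2. The shCHAF1B-#2 and shGFP libraries overlapped, and replicate 3 of shCHAF1B-#2 and replicate 2 of shGFP were the low ones. Without shGFP replicate 2 the shCHAF1B-#1 call ended (adjusted p = 0.0639), and without shCHAF1B-#2 replicate 3 SRSF5 was called as risen by both hairpins. SRSF6, SRSF9, SRSF10 and SRSF11 passed in neither comparison, with log2 fold changes from -0.10 to 0.04 with shCHAF1B-#1 and from -0.05 to 0.04 with shCHAF1B-#2. SRSF12 was scarce, at a mean of 0.840 CPM and 0.931 CPM in the knockdowns against 1.22 CPM with shGFP, and its fall with shCHAF1B-#1 (-0.53, adjusted p = 0.049) held in 5 of 16 alternative settings. SRSF9 overlaps GATC and SRSF2 overlaps MFSD11, and these libraries do not separate strands, so reads of such neighbours cannot be told apart.

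TRA2A and TRA2B, human relatives of the Drosophila splicing regulator transformer-2, bind exonic enhancers rich in GAA repeats. TRA2B (ENSG00000136527.17, chr3:185915906-185938136, minus strand) had 219, 216 and 211 CPM with shCHAF1B-#1 and 224, 224 and 227 CPM with shCHAF1B-#2, against 270, 265 and 282 CPM with shGFP. The knockdown libraries all lay below the controls, and TRA2B fell by 0.34 (SE 0.0416) and 0.27 (SE 0.0416). TRA2A fell with shCHAF1B-#1 (-0.22, SE 0.0587, adjusted p = 0.0056) and did not pass with shCHAF1B-#2 (-0.09, 95% interval -0.22 to 0.03).

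**Figure D3:**
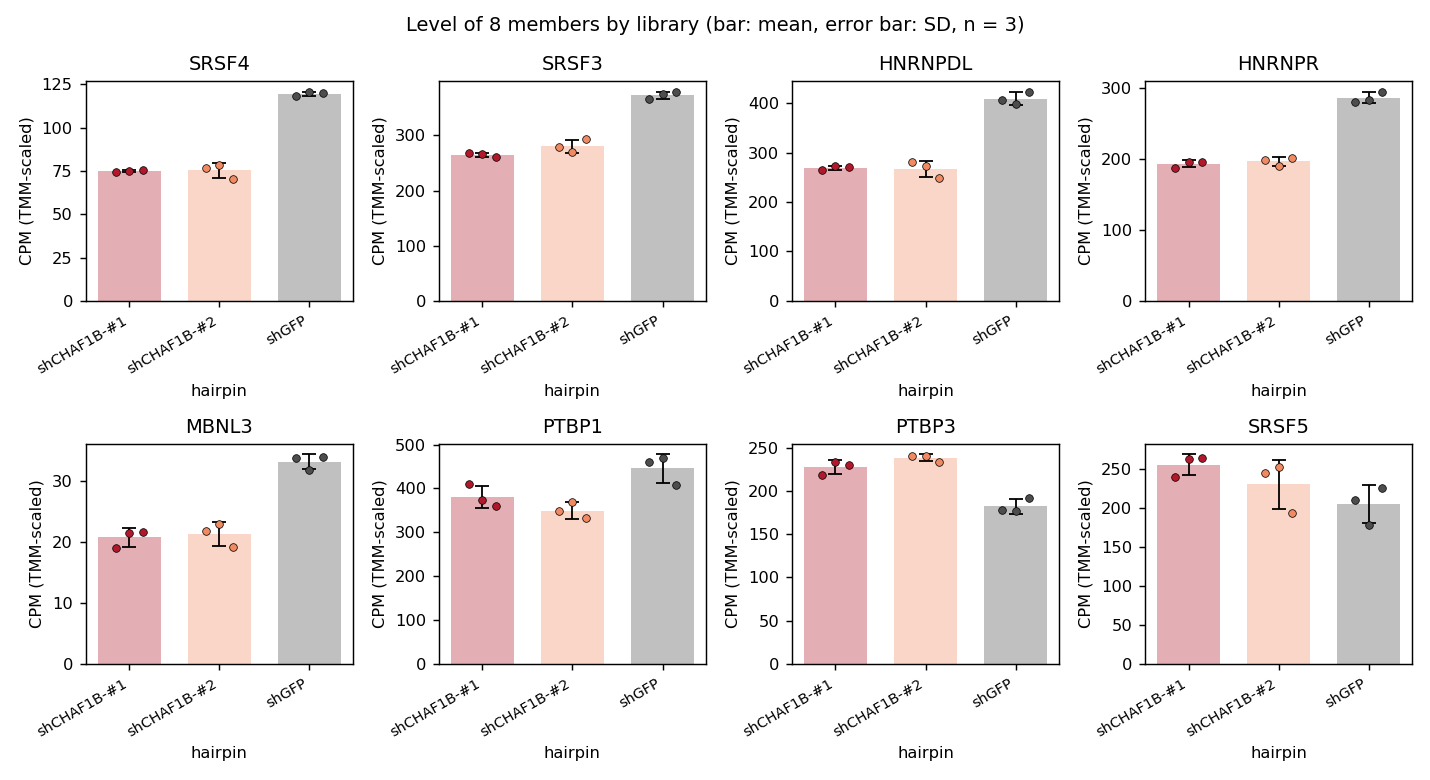
CPM (vertical axes, from 0) of 8 genes in each library (points), with the mean (bar) and SD (error bar, n = 3) for shCHAF1B-#1, shCHAF1B-#2 and shGFP. In SRSF4, SRSF3, HNRNPDL, HNRNPR and MBNL3 all knockdown points lie below all shGFP points, in PTBP3 above, and in PTBP1 and SRSF5 some points overlap.

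Of the 22 tested hnRNPs, 17 fell under both hairpins. HNRNPDL (ENSG00000152795.17, chr4:82422564-82430408, minus strand), a paralog of HNRNPD that regulates its own splicing, had 264, 272 and 271 CPM with shCHAF1B-#1 and 280, 273 and 249 CPM with shCHAF1B-#2, against 407, 398 and 423 CPM with shGFP. The lowest shGFP library lay far above the highest knockdown library, and the log2 fold change was -0.61 for both hairpins (SE 0.050 each, adjusted p = 2.9e-07 and 2.8e-07). HNRNPR (ENSG00000125944.19, chr1:23303771-23344336, minus strand), known from axonal transport of beta-actin mRNA in mouse motor neurons, had 188, 196 and 197 CPM and 198, 190 and 202 CPM in the knockdowns, against 281, 283 and 296 CPM with shGFP. The groups did not overlap. HNRNPR fell by 0.57 (SE 0.0443) and 0.54 (SE 0.0443). HNRNPD, also called AUF1, which binds AU-rich elements, fell by 0.36 (SE 0.0452) and 0.33 (SE 0.0453).

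HNRNPA1 and its copies fell together, and reads cannot be assigned among them with certainty. HNRNPA1 (ENSG00000135486.17, chr12:54280193-54287088, plus strand), the archetype of a splicing repressor, had 128, 137 and 145 CPM with shCHAF1B-#1 and 144, 140 and 133 CPM with shCHAF1B-#2, against 194, 189 and 211 CPM with shGFP. Its libraries were added to those described after the values were seen, as the parent gene of 2 members. It fell by 0.53 (SE 0.0580) and 0.51 (SE 0.0581), with no overlap between groups. HNRNPA1L2 (ENSG00000139675.11, chr13:52642425-52643796, plus strand), a retrocopy, had 2.36, 2.95 and 2.88 CPM and 2.74, 2.08 and 2.82 CPM in the knockdowns, against 3.78, 4.16 and 3.86 CPM with shGFP. HNRNPA1P48 (ENSG00000224578.5, chr16:51553436-51647132, plus strand), named as a pseudogene but typed as protein coding in the annotation, had 1.67, 2.82 and 2.41 CPM and 2.33, 2.12 and 2.44 CPM, against 3.81, 4.41 and 4.60 CPM with shGFP. These copies are scarce beside the parent and also lower in every knockdown library. HNRNPA1L2 fell by 0.52 (SE 0.145) and 0.63 (SE 0.148), and HNRNPA1P48 by 0.88 (SE 0.170) and 0.90 (SE 0.172). A further 69 annotated HNRNPA1 pseudogenes in the table held 280 to 656 counts per library in sum, up to 12.0% of the HNRNPA1 count. The likeness of parent and copies is shown by 27 bases around the start codon of HNRNPA1 and the matching stretch of each copy, with a shared 7-mer in capitals:
HNRNPA1 (chr12:54280802-54280808): tcttcaccctGCCGTCAtgtctaagtc
HNRNPA1L2 (chr13:52642487-52642493): tcttcaccttGCCGTCAtgtctaagtc
HNRNPA1P48 (chr16:51645812-51645818): tcttcaccctGCCGTCAtgtctaagtc

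The most abundant members per length, in CPM per kilobase of merged exons in shGFP, were HNRNPA2B1, HNRNPAB and HNRNPK. HNRNPA2B1 (ENSG00000122566.20, chr7:26173057-26201529, minus strand), which binds RNA in the nucleus and sorts microRNAs into exosomes, had a level of 151 ± 4.13 and 159 ± 5.16 in the knockdowns against 193 ± 7.72 with shGFP (CPM per kilobase, SD, n = 3 each). Per library it had 1364, 1438 and 1383 CPM with shCHAF1B-#1 and 1461, 1435 and 1528 CPM with shCHAF1B-#2, against 1739, 1750 and 1868 CPM with shGFP. The groups did not overlap, and HNRNPA2B1 fell by 0.36 (SE 0.0480) and 0.28 (SE 0.0480). It overlaps CBX3 and NFE2L3 on the other strand. HNRNPAB (ENSG00000197451.11, chr5:178204507-178211163, plus strand), close in sequence to HNRNPD, had 365, 337 and 323 CPM and 329, 324 and 361 CPM in the knockdowns, against 376, 391 and 379 CPM with shGFP. HNRNPK (ENSG00000165119.20, chr9:83968083-83980616, minus strand), a KH domain protein that binds C-rich RNA and DNA, had 705, 714 and 702 CPM and 725, 676 and 756 CPM, against 753, 797 and 807 CPM. In HNRNPK the shCHAF1B-#2 and shGFP libraries overlapped.

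The falls of HNRNPAB and HNRNPK were small and not stable. HNRNPAB fell by 0.16 (SE 0.0559, adjusted p = 0.027) and 0.18 (SE 0.0560, adjusted p = 0.018), and HNRNPK by 0.15 (SE 0.050, adjusted p = 0.020) and 0.13 (SE 0.050, adjusted p = 0.048). The HNRNPAB fall with shCHAF1B-#1 missed the threshold without shCHAF1B-#1 replicate 3 (-0.12, adjusted p = 0.124), replicate 2 of the same hairpin or shGFP replicate 2, and that with shCHAF1B-#2 without its replicate 1 or 2 or shGFP replicate 2. The HNRNPK fall with shCHAF1B-#2 was -0.08 (adjusted p = 0.186) without shCHAF1B-#2 replicate 2, and its call by both hairpins ended in 11 of 16 alternative settings. In shGFP, HNRNPA2B1 (193 ± 7.72) and HNRNPAB (178 ± 3.66) headed the order of levels and differed beyond their SDs, followed by HNRNPK (154 ± 5.66), HNRNPF (113 ± 3.11) and SRSF1 (104 ± 5.93), all in CPM per kilobase. This order depends on the length used, which the SDs do not cover. Merged exons of HNRNPK span 5114 bases, against 2942 in its longest coding transcript, and those of HNRNPAB 2144 against 1796. Another choice of length could change the order. At the low end stood PTBP2 (1.54 ± 0.140) and SRSF12 (0.268 ± 0.0206). Within the middle of the order many neighbours, such as HNRNPM (69.8 ± 4.40) and HNRNPH1 (68.9 ± 6.32), did not differ beyond their spread.

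**Figure D4:**
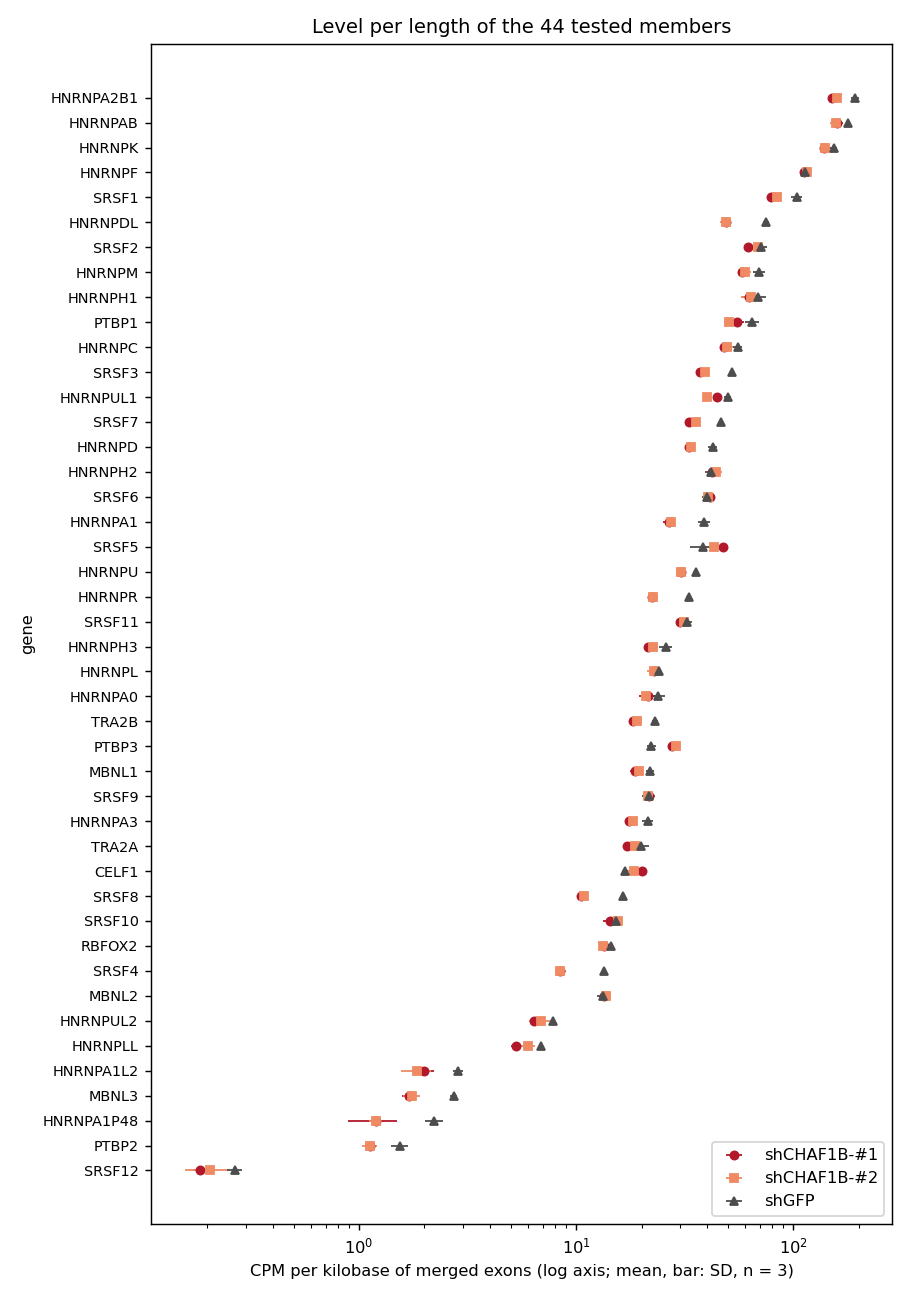
Level of the 44 tested genes in CPM per kilobase of merged exons (horizontal log axis; mean with SD as bar, n = 3) for shCHAF1B-#1 (circles), shCHAF1B-#2 (squares) and shGFP (triangles), sorted by the shGFP level. The order runs from HNRNPA2B1 at 193 in shGFP to SRSF12 at 0.268, and most triangles lie to the right of the other symbols.

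Of the remaining hnRNPs, HNRNPA3, HNRNPC, HNRNPH3, HNRNPLL, HNRNPM, HNRNPU, HNRNPUL1 and HNRNPUL2 fell under both hairpins, with log2 fold changes from -0.38 to -0.16 with shCHAF1B-#1 and from -0.31 to -0.16 with shCHAF1B-#2. HNRNPLL, known for the CD45 switch of T cells, fell by 0.38 (SE 0.0643) and 0.21 (SE 0.0642). HNRNPU, a nuclear matrix protein that also binds chromatin, fell by 0.23 (SE 0.0452) and 0.22 (SE 0.0452). HNRNPA0 passed with shCHAF1B-#2 alone (-0.19, adjusted p = 0.036), a call that held in 9 of 16 alternative settings (adjusted p up to 0.159), and in 4 settings it was called as fallen by both hairpins. Calls by both hairpins held in all 16 alternative settings for HNRNPA3, HNRNPM, HNRNPU and HNRNPUL1, and ended in 12 of them for HNRNPUL2 and in 6 for HNRNPC. HNRNPH3 lost its call by both hairpins without shGFP replicate 3, and HNRNPLL without shCHAF1B-#2 replicate 2. Pseudogenes of HNRNPA3 in the table (15) held up to 4.95% of its count, and those of HNRNPC (9) and HNRNPL (2) up to 1.35% and 1.51%.

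HNRNPF, HNRNPH1, HNRNPH2 and HNRNPL passed in neither comparison. HNRNPF (ENSG00000169813.16, chr10:43385617-43409166, minus strand), which like HNRNPH1 binds runs of G, had 375, 362 and 351 CPM with shCHAF1B-#1 and 377, 361 and 386 CPM with shCHAF1B-#2, against 359, 379 and 370 CPM with shGFP. The groups overlapped throughout, and the 95% interval of the log2 fold change was -0.12 to 0.07 and -0.08 to 0.12. HNRNPL (ENSG00000104824.16, chr19:38836388-38852347, minus strand), which binds CA repeats, had 155, 160 and 154 CPM and 158, 145 and 167 CPM in the knockdowns, against 161, 169 and 162 CPM, with intervals of -0.19 to 0.04 and -0.18 to 0.04. HNRNPH1 had a wider spread, at 543, 623 and 621 CPM and 632, 644 and 533 CPM, against 673, 586 and 701 CPM with shGFP. In HNRNPH1 as in SRSF5, replicate 1 was the low shCHAF1B-#1 library, replicate 3 the low shCHAF1B-#2 library and replicate 2 the low shGFP library. HNRNPH2 overlaps the readthrough gene RPL36A-HNRNPH2. HNRNPU, HNRNPUL1, HNRNPUL2, HNRNPAB and HNRNPH3 likewise overlap other coding genes, such as COX20 and TGFB1 on the opposite strand of HNRNPU and HNRNPUL1.

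The PTBP genes, which encode polypyrimidine tract binding proteins that repress exons, did not move together. PTBP1 (ENSG00000011304.19, chr19:797075-812327, plus strand), the form of most non-neuronal cells, had 409, 373 and 360 CPM with shCHAF1B-#1 and 348, 369 and 332 CPM with shCHAF1B-#2, against 460, 469 and 409 CPM with shGFP. The highest shCHAF1B-#1 library touched the lowest control. PTBP1 fell by 0.23 (SE 0.0642, adjusted p = 0.0088) and 0.35 (SE 0.0644, adjusted p = 4.5e-04). PTBP2 (ENSG00000117569.18, chr1:96721665-96823738, plus strand), the neuronal form, had 13.8, 14.4 and 15.4 CPM and 14.9, 15.5 and 13.2 CPM in the knockdowns, against 19.9, 18.1 and 21.7 CPM with shGFP. It fell by 0.45 with both hairpins (SE 0.0859 and 0.0866), with no overlap.

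PTBP3 (ENSG00000119314.15, chr9:112217716-112333667, minus strand), first described in haematopoietic cells as ROD1, was the single member that rose under both hairpins. It had 218, 234 and 231 CPM with shCHAF1B-#1 and 241, 241 and 234 CPM with shCHAF1B-#2, against 179, 176 and 193 CPM with shGFP. The knockdown libraries all lay above the controls, and PTBP3 rose by 0.32 (SE 0.0477, adjusted p = 7.4e-05) and 0.39 (SE 0.0477, adjusted p = 1.4e-05), or 1.25-fold and 1.31-fold. Per length, the ratio of PTBP1 to PTBP3 was 2.24, 1.91 and 1.87 with shCHAF1B-#1 and 1.73, 1.83 and 1.70 with shCHAF1B-#2, against 3.08, 3.18 and 2.54 with shGFP. The ratio was singled out after its values had been seen and is given without a test. Its size depends on the gene lengths used, while its relative change between groups does not.

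The MBNL genes encode muscleblind-like proteins, which bind pyrimidine-flanked GC motifs and are sequestered by CUG repeats in myotonic dystrophy. MBNL3 (ENSG00000076770.14, chrX:132369317-132489968, minus strand) had 19.0, 21.5 and 21.7 CPM with shCHAF1B-#1 and 21.8, 23.0 and 19.2 CPM with shCHAF1B-#2, against 33.8, 31.8 and 34.1 CPM with shGFP. It stood well below the controls in all 6 knockdown libraries and fell by 0.68 (SE 0.0745) and 0.64 (SE 0.0749). MBNL1 (ENSG00000152601.17, chr3:152243828-152465780, plus strand), the more abundant paralog, had 178, 185 and 199 CPM and 198, 198 and 185 CPM in the knockdowns, against 221, 209 and 228 CPM with shGFP. The groups were close but did not overlap. MBNL1 fell by 0.23 (SE 0.0530) and 0.18 (SE 0.0531, adjusted p = 0.013), and the shCHAF1B-#2 call ended without shGFP replicate 3 (adjusted p = 0.0538). MBNL2 (ENSG00000139793.18, chr13:97221434-97394120, plus strand) had 65.7, 65.7 and 66.5 CPM and 69.8, 69.1 and 63.4 CPM, against 64.1, 61.9 and 68.7 CPM with shGFP. These overlapped, and its intervals were -0.09 to 0.14 and -0.06 to 0.17.

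RBFOX2, a regulator that binds UGCAUG, fell by 0.12 (SE 0.0402, adjusted p = 0.026) and 0.13 (SE 0.0403, adjusted p = 0.017), and lost that call in 4 of 16 alternative settings. CELF1, which binds GU-rich RNA and opposes MBNL1 on shared exons, had 205, 208 and 217 CPM with shCHAF1B-#1 and 203, 198 and 177 CPM with shCHAF1B-#2, against 178, 170 and 178 CPM with shGFP. It rose with shCHAF1B-#1 (0.26, SE 0.0537, adjusted p = 0.0011) and just missed the threshold with shCHAF1B-#2 (0.13, SE 0.0539, adjusted p = 0.053), where replicate 3 alone met the shGFP range. With RLE scaling, with DESeq2 and without that library, CELF1 was called as risen by both hairpins. CELF1 overlaps NDUFS3 and PTPMT1.

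The hairpins did not differ in any member past the threshold. Of 44 members, 0 passed in shCHAF1B-#2 minus shCHAF1B-#1 with edgeR or with DESeq2, where 0 of 16235 genes passed with edgeR (background 0%). Under an unadjusted p of 0.05 were 7 of 44 members and 1800 of 16235 genes with edgeR, and 6 members with DESeq2. The differences ran from -0.15 to 0.17 on the log2 scale. The highest, in HNRNPLL, had a 95% interval of 0.03 to 0.31, and the lowest, in SRSF5, one of -0.36 to 0.06.

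Features that the choice by name did not use were read from the annotation and the sequence. Of the 44 tested members, 29 (65.9%) have an annotated transcript subject to nonsense-mediated decay, against 43.1% of 12699 tested protein-coding genes, and 29 (65.9%) have one with a retained intron, against 57.6%. Members also have more annotated transcripts, a median of 11 against 8. Such a decay transcript is annotated for 18 of the 28 members that fell under both hairpins (64.3%) and for 11 of the 15 not called by both (73.3%). HNRNPU has the most, 9, and fell by 0.23 and 0.22. SRSF7 has 6 and HNRNPDL 4, as does HNRNPH1, which passed in neither comparison. PTBP3, which rose, has none, and neither do MBNL3 and PTBP2, which fell. The counts are per gene, so productive and decay transcripts of a gene are summed and were not told apart.

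Promoters of 41 members were in the RefSeq table (GRCh38.p14), read over 250 bases before the start given there, both strands. CCAAT was found in 24 of 41 (58.5%), against 41.1% of 11700 coding genes, and the GC box GGGCGG in 68.3%, against 71.3%. These 11700 are coding genes of the count table with a promoter entry, whether or not they passed the filter on counts. TATAAA was found in 17.1% against 9.10%, and the E box CACGTG in 17.1% against 10.7%. Each motif was counted on its own, so 2 motifs may share bases, and a match is a description of the letters. A gene with several promoter entries counted as holding a motif if any entry did. The number of entries per gene was not compared between members and other genes. The promoter windows of a falling SR gene, a falling hnRNP gene and the rising PTBP gene follow, with GC boxes in capitals for SRSF4 and PTBP3 and CCAAT boxes, on the opposite strand, in capitals for HNRNPR:
SRSF4 (chr1:29181901-29182150, minus strand): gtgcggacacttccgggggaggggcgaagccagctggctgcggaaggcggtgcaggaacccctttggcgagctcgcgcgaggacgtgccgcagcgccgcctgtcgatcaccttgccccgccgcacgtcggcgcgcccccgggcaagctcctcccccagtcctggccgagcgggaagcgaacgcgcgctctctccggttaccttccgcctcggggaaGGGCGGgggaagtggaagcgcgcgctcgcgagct
HNRNPR (chr1:23344285-23344534, minus strand): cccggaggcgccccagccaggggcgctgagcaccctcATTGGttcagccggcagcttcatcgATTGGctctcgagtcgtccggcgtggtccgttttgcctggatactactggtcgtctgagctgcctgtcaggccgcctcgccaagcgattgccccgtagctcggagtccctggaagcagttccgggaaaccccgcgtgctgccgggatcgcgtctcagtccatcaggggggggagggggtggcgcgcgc
PTBP3 (chr9:112333027-112333276, minus strand): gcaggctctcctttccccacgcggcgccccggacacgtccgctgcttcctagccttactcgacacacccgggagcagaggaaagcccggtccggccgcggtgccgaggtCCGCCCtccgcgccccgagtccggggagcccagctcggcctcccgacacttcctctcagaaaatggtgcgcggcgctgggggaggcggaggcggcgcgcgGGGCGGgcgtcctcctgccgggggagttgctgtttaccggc
The starts used for these windows are not those of the gene spans given above. The PTBP3 window lies wholly inside its span, and the SRSF4 and HNRNPR windows lie partly inside theirs. All windows shown are GC-rich (73.6%, 68.0% and 73.6%). SRSF4 and PTBP3, which moved in opposite directions, both hold the GC box, SRSF4 once and PTBP3 on each strand, and HNRNPR holds 2 CCAAT boxes and no GC box in this window.

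A run of 9 bases in the coding sequence of CHAF1B holds 3 overlapping 7-mers, and 12 of the 44 tested members hold at least 1 of those 7-mers in their longest coding transcript. Of those 12, 10 fell with shCHAF1B-#1 and 9 with shCHAF1B-#2, with medians of -0.51 and -0.40. HNRNPA1 and its 2 copies are 3 of the 12 and share their site. With the copies left out, 8 and 7 of 10 fell, with medians of -0.45 and -0.37. Of the 32 others, 21 fell and 3 rose, and 20 fell and 1 rose, with medians of -0.21 and -0.18. Over all tested coding genes, the 2654 that hold one (20.9%) had medians of -0.02 and -0.06, and 31.8% and 33.3% of them fell. The 10024 that do not had medians of 0.02 and 0.02, and 27.8% and 26.3% of them fell. The 7-mers were chosen with the values known. The sites of SRSF3, HNRNPR and HNRNPDL are shown for comparison with CHAF1B, with matched bases in capitals:
CHAF1B (chr21:36387671-36387679, plus strand, coding): cgtcataccaAAGCCGTCAatgttgtgcg
SRSF3 (chr6:36601763-36601770, plus strand, coding): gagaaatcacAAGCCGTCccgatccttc
HNRNPR (chr1:23323563-23323569, minus strand, coding): gctgcacaggAAGCCGTgaaactgtgt
HNRNPR (chr1:23309870-23309876, minus strand, 3′ UTR): taaacgtcaaAAGCCGTgacaatttgt
HNRNPDL (chr4:82430103-82430109, minus strand, 5′ UTR): tgcccggaggAGCCGTCgcgcgcccgc
SRSF3 matches 8 of the 9 bases in one run, and the others match 7. The genes shown are falling ones. HNRNPF (log2 fold changes of -0.02 and 0.02) and HNRNPH1 (-0.13 and -0.12) also hold a 7-mer and passed in neither comparison. SRSF4, SRSF8 and MBNL3, with log2 fold changes between -0.68 and -0.60, hold none. The sequences of the hairpins were not used here, and the part of these sites in the result was not tested.

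The other genes of the splicing pathway were set beside the members in the mean of both hairpins against shGFP, where 32 of the 44 members fell and 3 rose, 27.7% of all genes fell and 29.2% rose. The spliceosome core, the snRNP proteins and helicases that carry out splicing, had a median of -0.23, as the members did: 38 of 55 genes fell and 3 rose (DHX8, DHX38 and PRPF6). LSM4 and LSM2 of the U6 snRNP ring fell by 0.68 (SE 0.0753) and 0.67 (SE 0.0521), USP39 of the tri-snRNP by 0.39 (SE 0.0433) and the helicase DHX15 by 0.33 (SE 0.0361). Among SR-related and nuclear speckle proteins 14 of 24 fell and 1 rose (LUC7L), with a median of -0.18. BCLAF1 fell by 0.47 (SE 0.0429), RNPS1, an activator of splicing found in exon junction complexes, by 0.45 (SE 0.0435), RSRC1 by 0.42 (SE 0.0430) and SRRM1 by 0.35 (SE 0.0519).

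The kinases, phosphatases and importer that act on SR proteins showed no common direction: 5 of 13 fell (SRPK3, PPP1CC, PRPF4B, CLK2 and SRPK1) and 4 rose (DYRK1A, CLK4, PPP1CB and TNPO3), with a median of 0.04. SRPK3 was scarce (a mean of 0.683 CPM with shGFP) and passed with neither hairpin alone (adjusted p = 0.052 and 0.16). CLK2 passed with shCHAF1B-#2 alone and TNPO3 with shCHAF1B-#1 alone. PPP1CC, a catalytic subunit of protein phosphatase 1, fell by 0.41 (SE 0.0463) and PRPF4B, a kinase of the tri-snRNP, by 0.41 (SE 0.0594), while DYRK1A rose by 0.32 (SE 0.0484) and PPP1CB by 0.24 (SE 0.0518). Of 38 tested regulators of alternative splicing outside the members, 16 fell and 10 rose, with a median of -0.07. RBMX, also called hnRNP G, fell by 0.50 (SE 0.0395), and PCBP4 rose by 0.77 (SE 0.0591). Of 15 genes of nonsense-mediated decay and the exon junction complex, 6 fell, with a median of -0.07. MAGOHB fell by 0.41 (SE 0.0591), RBM8A by 0.35 (SE 0.0457) and EIF4A3 by 0.29 (SE 0.0383). Without shCHAF1B-#1 replicate 3, 38 genes of the spliceosome core fell and 3 rose, and no count of the other lists moved by more than 1.

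**Figure D5:**
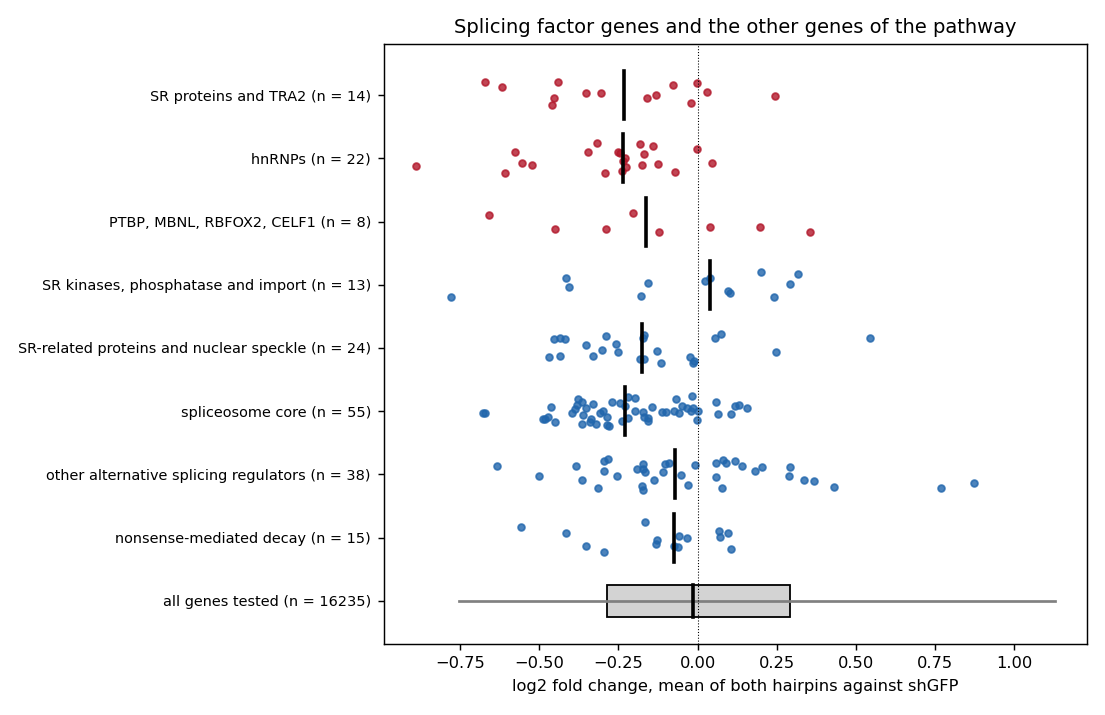
Log2 fold change of the mean of both hairpins against shGFP (horizontal axis) for each tested gene of the member groups (red) and of the other splicing lists (blue), with the median as a black line. The grey box and line give the quartiles and the 5th to 95th percentile of all 16235 genes tested; the medians of the SR proteins with TRA2, the hnRNPs and the spliceosome core lie near -0.23.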

How the data were processed

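Per the deposited file, values are raw counts per gene and library, whole numbers with no scaling by the authors. STAR 2.5.3a, HTSeq 0.8.0, DESeq2 1.18.1, hg38 and mm10 are listed in the submitters' processing notes without their roles. Per the labels' protocols, polyadenylated RNA went through the TruSeq kit, version 2, which does not mark strand. Identifiers were matched without version to GENCODE 29 on GRCh38 (26149 matched, 37 did not), and the lowest gene total was 7 counts.

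All 9 libraries (24339914 to 31819468 counts) entered 1 fit with edgeR 4.0.16 in R 4.3.3: TMM scaling, filterByExpr (minimum count 10, minimum total 15, proportion 0.7), hairpin as the only term, the quasi-likelihood test and Benjamini-Hochberg adjustment over 16235 genes, called at 0.05. The common biological coefficient of variation was 6.24%. Every pair of libraries within a group differed by more than counting error and was kept as separate replicates. CPM are depth-scaled counts after TMM; levels between genes are per kilobase of merged exons.

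Members and lists were chosen with earlier results of these data known. Given in every library are CHAF1B; per role up to 4 falling and 4 rising members ranked by the smaller of their changes under the hairpins; the 3 most abundant per length; and 3 uncalled members with the narrowest interval. HNRNPA1, SRSF5, CELF1, HNRNPH1 and the ratio of PTBP1 to PTBP3 were added after their values were seen. Of each other list the 4 genes with the smallest adjusted p are named, plus all genes behind a count of at most 5. Some genes that this rule picks are not reported here. The alternatives comprised RLE factors, upper-quartile factors, DESeq2 1.42.0 (Wald test), an unfiltered table, a filter of 1 CPM in 3 libraries, fits of the compared groups alone, a replicate block, a threshold of 0.01, each library left out and, added later, members with a shared 7-mer left out. The steps were tested on simulated data, with 50 genes changed at each size in the shCHAF1B-#1 group. Of 1.3-fold changes 50% were recovered, of 1.5-fold 68%, of 2-fold 80% and of 3-fold 96%, and 14 unchanged genes were called. Far fewer genes were changed there than were called in the data, and many small changes would be missed.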

Additional observations from a re-analysis of the deposited data

How the results depend on the processing

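The call by both hairpins held in all 16 alternative settings at the 0.05 threshold for 20 of the 28 falling members and for PTBP3, and ended in at least 1 for HNRNPUL2, HNRNPK, HNRNPC, HNRNPAB, RBFOX2, HNRNPH3, HNRNPLL and MBNL1. With RLE scaling and with DESeq2, 2 members rose with shCHAF1B-#2 and under both hairpins, against 1 as reported; the added member was CELF1. With a library left out, the members that fell numbered 27 to 31 with shCHAF1B-#1, 23 to 29 with shCHAF1B-#2, 28 to 32 in the mean and 23 to 28 under both. Those that rose numbered 2 to 3, 1 to 3, 2 to 3 and 1 to 3. The count of 3 risers with shCHAF1B-#2 and under both came without shCHAF1B-#2 replicate 3 and added SRSF5 and CELF1. At an adjusted p of 0.01, 27 members fell with shCHAF1B-#1, 20 with shCHAF1B-#2 and 20 under both. Without members that hold a shared 7-mer, 19 fell and 1 rose under both. For these settings the share over all genes is given above only without shCHAF1B-#1 replicate 3. The other counts describe whether the members' calls held and make no comparison with other genes. Upper-quartile scaling moved the median of all genes to -0.03 and -0.05 and that of the members to -0.26 and -0.24. In the lists, the spliceosome core had 1 riser, against 3, with upper-quartile scaling, at 0.01 and without shGFP replicate 1 or 3, and the SR kinase list had 3 fallers, against 5, at 0.01 and without shGFP replicate 1 or 3.

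Replicate numbers did not pair the libraries: correlations of same-numbered libraries ran from -0.138 to 0.1. Those of differently numbered libraries of different groups ran from -0.217 to 0.22. The highest joined shGFP replicate 2 with shCHAF1B-#1 replicate 1 (0.22) and with shCHAF1B-#2 replicate 3 (0.187). A block on replicate number cannot take up such links. With the replicate number as a block, 30 members fell with shCHAF1B-#1, 27 with shCHAF1B-#2 and 27 under both, and HNRNPK lost its shCHAF1B-#2 call (adjusted p = 0.0718). The causes of these shifts were not tested, and the share over all genes with the block is not given. Intervals and SEs cover these 3 libraries a group; scarce members such as SRSF12 and HNRNPA1P48 have the widest.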
